A study of Homo sapiens with 6 samples.

Results

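The expression of 51 genes of glucose uptake, glycolysis, the pentose phosphate pathway, pyruvate entry and the TCA cycle was examined in MDA-MB-231 cells, a human triple-negative breast cancer line of mesenchymal type. The genes were taken from a fixed list of symbols, and all 51 were found among the 63241 gene identifiers of the count files and passed the filter on low counts that left 15295 genes for testing. Wild-type MDA-MB-231 cells received either 5 μM NCD (nitidine chloride, a plant alkaloid) or the vehicle, 0.1% DMSO, for 24 h in DMEM with fetal calf serum, and each group had 3 RNA-seq libraries. A single cell line, dose and time were sampled. The labels do not say whether the 3 libraries of a group came from separate cultures, so p-values measure only the spread between these libraries, which may be technical.

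Glycolysis splits glucose into pyruvate in the cytosol and yields ATP and NADH. Hexokinase and phosphofructokinase set much of its rate, and the bifunctional PFKFB enzymes tune phosphofructokinase by making and removing its activator fructose 2,6-bisphosphate. The pentose phosphate pathway branches off early to supply NADPH and ribose, while pyruvate that enters mitochondria feeds the TCA cycle unless the pyruvate dehydrogenase kinases switch pyruvate dehydrogenase off. Tumour cells often run glycolysis hard even with oxygen present, and MDA-MB-231 is commonly used as a strongly glycolytic line.

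Totals were 18223594 to 19410833 counts per DMSO library and 18232169 to 21629653 per NCD library. Libraries of a group were compared in pairs by chi-square per degree of freedom, which grows as their counts differ beyond counting error. It was 2.046 for NCD replicates 1 and 2, the most alike pair, and 4.172 to 15.452 for the other pairs. The 6 markers that MDA-MB-231 should express, VIM, CD44, AXL, CAV1, MSN and TGFBI, lay between 203.1 and 3156 CPM (counts scaled to library size, here by the TMM method) in every library, and their sum was 6494 to 6785 CPM in DMSO libraries and 3987 to 4278 CPM in NCD libraries. Of 6 markers low or absent in this line, PGR, CDH1 and ESR1 stayed below 1 CPM and ERBB2 was the highest, at up to 62.55 CPM. Of 6 markers of other cell types CD68 reached 95.3 CPM, COL1A1 was at most 3.563 CPM with DMSO and at least 12.73 CPM with NCD, and PTPRC, CD3E and ALB were at or near 0. The summed level of those 6 was 84.08 to 94.2 CPM with DMSO and 101.9 to 108.5 CPM with NCD, and its part in the results below was not tested. In bulk RNA, fewer cells of a kind and less RNA per cell cannot be told apart.

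Most of the 51 genes were lower with NCD. Transcripts of SUCLG2, PDK1, HK2 and PFKP fell furthest, each to less than 0.35 of its DMSO level, while PCK2 and PFKFB2 rose by 8.50-fold and 3.88-fold. Every one of the 15 genes that encode the enzymes from hexokinase to pyruvate kinase had a negative log2 fold change with TMM scaling, although 3 of them, PFKM, ALDOA and GAPDH, did not pass the test and were above 0 when libraries were scaled by their totals. The median log2 fold change of the 51 genes was -0.46, against 0.04 for all tested genes.

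A gene was counted as changed at a Benjamini-Hochberg adjusted p under 0.05 from edgeR's quasi-likelihood test over all 15295 genes, and as differentially expressed when its absolute log2 fold change was also above 1. By the second rule 14 of the 51 genes were lower (27.5%, against 17.5% of all tested genes) and 2 were higher (3.92%, against 13.5% of all tested genes). Without the fold threshold 32 were lower (62.7%, against 34.1%) and 11 were higher (21.6%, against 35.3%), and 8 did not pass. The CPM ranges of the groups did not overlap for 35 genes that were lower (68.6%, against 35.3%) and for 9 that were higher (17.6%, against 37.2%). In either direction these rules took 31%, 69.3% and 72.6% of all tested genes. The choice of scaling bears on these counts. With library totals in place of TMM the median of all tested genes moved up by 0.20 on the log2 scale. Then 5 rather than 14 of the 51 genes were differentially expressed and lower, namely HK2, PFKP, PGK1, PDK1 and SUCLG2. These 5 of 51 were a smaller share than the 14.3% of all tested genes under library totals, the reverse of the order with TMM. Without the fold threshold 27 of 51 were lower under library totals, a larger share than the 27.3% of all tested genes. The 7 genes that changed sign between these scalings, PFKM, ALDOA, GAPDH, DLAT, IDH2, DLST and ACLY, all lay within 0.18 of 0 with TMM. Small changes that passed with TMM also depended on the scaling: PFKL, TPI1, ENO2, TALDO1 and ACLY no longer passed with library totals (adjusted p from 0.269 for TALDO1 to 0.774 for ENO2, edgeR). With ribosomal protein genes as the reference PFKL, ENO2, IDH3A, MDH2 and ACLY did not pass, and MDH2 did not with size factors either (adjusted p = 0.0689, edgeR). Conversely GAPDH passed, as lower, with the ribosomal reference, ALDOA, as lower, with size factors, and PDHA1 and MDH1, as higher, with library totals.

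**Figure D1:**
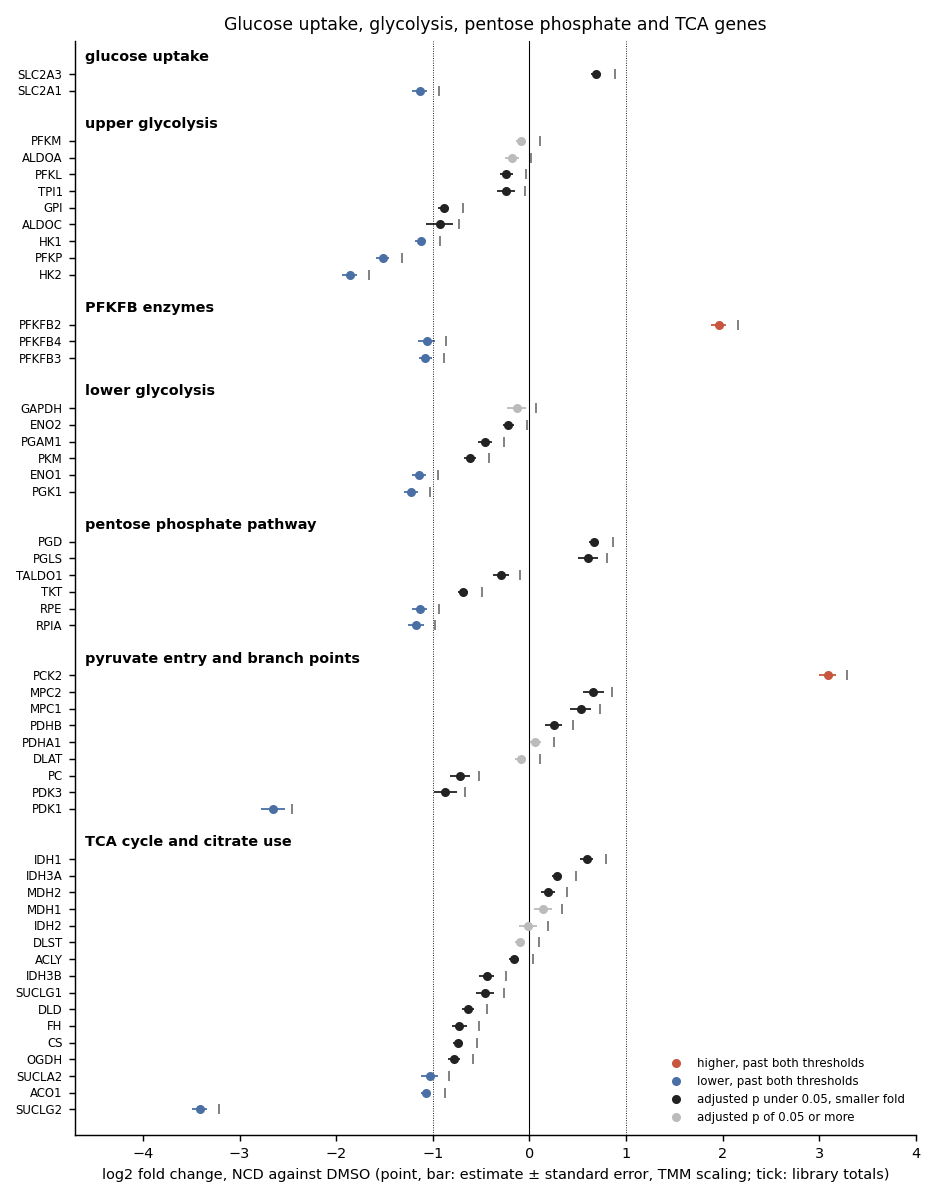
Log2 fold change of each of the 51 genes (horizontal axis, NCD against DMSO) by pathway step, with points and bars giving the edgeR estimate ± standard error under TMM scaling (n = 3 libraries per group), grey ticks the estimate under library totals, and dotted lines the fold threshold at -1 and 1. Upper and lower glycolysis lie wholly left of 0 with TMM, PCK2 stands furthest right at 3.09 and SUCLG2 furthest left at -3.41.

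As a share of all counts the 51 genes were abundant. Their summed level was 22232, 20141 and 20741 CPM in the DMSO libraries and 16300, 16309 and 14742 CPM in the NCD libraries. The groups did not overlap, and the sum was lower with NCD. Unscaled, the same genes took 1.91% to 2.02% of counts with DMSO and 1.61% to 1.73% with NCD, so the order did not rest on TMM. Lower glycolysis made up most of it, with 13158 ± 760 CPM in DMSO and 9390 ± 634 CPM in NCD libraries (SD, n = 3 each). The sum for pyruvate entry was 628 ± 27 CPM with DMSO and 777 ± 39 CPM with NCD (SD, n = 3 each), and most of that difference was PCK2 alone, at 18.12 and 154.0 CPM. Levels per transcript length, given as TPM computed from the length of each gene's principal transcript, spanned about 3 orders of magnitude in the DMSO libraries, from 4.53 ± 0.233 TPM for PFKFB2 to 5731 ± 187 TPM for GAPDH (SD, n = 3 each). After GAPDH on that scale came ENO1 with 2227 ± 56.9 TPM, TPI1 with 1726 ± 80.5 TPM and PKM with 1600 ± 113 TPM (SD, n = 3 each), and the DMSO ranges of TPI1 and PKM overlapped.

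Promoter windows are shown for the gene with the largest rise and for 3 of the lower genes. Those 3 were the lower, differentially expressed genes with the most matches to the hypoxia response element core. Genes of the hypoxia-driven glycolytic programme such as PGK1, HK2 and ENO1 are textbook cases of control through short DNA elements near the start site. Windows run from 250 bases before to 50 bases after the RefSeq transcription start (GRCh38.p14), and 48 of the 51 genes had one. Both spellings of the hypoxia response element core, ACGTG and GCGTG, were searched on both strands, a search that also takes in the E-box CACGTG, along with the amino acid response element TGATGNAA. The motifs and windows were chosen after the expression values had been seen, and capitals mark matches to either hypoxia core. The windows are PCK2 at chr14:24094061-24094360 on the plus strand, PGK1 at chrX:78103998-78104297 on the plus strand, HK2 at chr2:74833877-74834176 on the plus strand and ENO1 at chr1:8878637-8878936 on the minus strand.
PCK2: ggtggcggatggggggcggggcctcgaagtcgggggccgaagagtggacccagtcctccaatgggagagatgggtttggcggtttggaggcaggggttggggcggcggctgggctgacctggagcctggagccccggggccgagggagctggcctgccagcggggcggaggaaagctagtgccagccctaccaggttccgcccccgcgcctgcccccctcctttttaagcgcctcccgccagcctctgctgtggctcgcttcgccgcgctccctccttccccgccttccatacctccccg
PGK1: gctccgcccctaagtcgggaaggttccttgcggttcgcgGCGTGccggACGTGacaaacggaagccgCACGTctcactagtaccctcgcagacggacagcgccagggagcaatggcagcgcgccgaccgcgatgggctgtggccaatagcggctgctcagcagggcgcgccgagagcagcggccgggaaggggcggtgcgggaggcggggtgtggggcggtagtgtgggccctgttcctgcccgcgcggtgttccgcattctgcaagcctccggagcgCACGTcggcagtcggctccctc
HK2: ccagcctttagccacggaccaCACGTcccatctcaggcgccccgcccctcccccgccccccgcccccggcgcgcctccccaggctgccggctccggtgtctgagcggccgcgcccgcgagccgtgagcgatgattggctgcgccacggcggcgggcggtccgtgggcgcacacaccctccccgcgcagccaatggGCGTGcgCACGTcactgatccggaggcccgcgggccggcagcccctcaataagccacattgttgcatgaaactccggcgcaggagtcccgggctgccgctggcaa
ENO1: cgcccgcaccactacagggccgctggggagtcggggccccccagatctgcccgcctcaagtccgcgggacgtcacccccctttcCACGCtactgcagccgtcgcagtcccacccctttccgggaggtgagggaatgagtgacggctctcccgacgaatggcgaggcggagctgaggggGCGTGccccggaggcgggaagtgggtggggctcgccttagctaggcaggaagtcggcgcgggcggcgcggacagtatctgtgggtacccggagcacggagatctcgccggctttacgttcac
The PGK1 window held 4 matches, the HK2 window 3 and the ENO1 window 2, and the PCK2 window held none. Because the 3 lower genes were picked by their number of matches, these counts were high by choice. No core was found in the windows of PDK1, SUCLG2 and PFKP, which fell further than PGK1 and ENO1. HK2 fell further than PFKP and less than PDK1 and SUCLG2. At least 1 core was present in 30 of the 48 windows (62.5%) and in 13213 of all 27305 RefSeq windows of this length (48.4%). Among the 14 lower, differentially expressed genes, all of which had a window, 8 held a core (57.1%), so the lower genes did not stand above the other members in this respect. TGATGNAA occurred in 1 member window, that of HK1 (2.08% of 48, against 3.67% of all windows). A match is a run of letters and was not tested for binding.

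Glucose enters these cells through the facilitative transporters SLC2A1 (GLUT1) and SLC2A3 (GLUT3), which changed in opposite directions. SLC2A1 (chromosome 1, 42925375 to 42959176, minus strand, GRCh38) stood at 106.8, 112.8 and 106.5 CPM in the DMSO libraries and at 54.44, 48.37 and 45.74 CPM in the NCD libraries. All 3 NCD libraries lay well below all 3 DMSO libraries. Its log2 fold change was -1.13 (SE, the standard error, 0.08; adjusted p = 1.76e-06, edgeR). SLC2A3 (chromosome 12, 7919230 to 7936275, minus strand), the transporter with the higher glucose affinity, went from 66.89, 67.50 and 67.53 CPM to 110.8, 108.1 and 106.4 CPM. The groups again did not overlap, and the log2 fold change was 0.69 (SE 0.06, adjusted p = 4.69e-06, edgeR). The near-identical paralog SLC2A14 had at most 16.1 counts in any library. On the per-length scale SLC2A3 made up 37.0%, 35.9% and 37.3% of the pair with DMSO and 65.6%, 67.7% and 68.6% with NCD, so the main transporter transcript changed from SLC2A1 to SLC2A3. With merged exon lengths the order changed likewise, from 69.04 TPM for SLC2A1 and 32.76 TPM for SLC2A3 to 35.54 and 59.79 TPM. The log2 ratio of SLC2A3 to SLC2A1 rose by 1.83. The summed level per length was 88.01 ± 6.90 TPM with DMSO and 85.81 ± 2.81 TPM with NCD (SD, n = 3 each). On that scale, which does not use TMM, the difference was smaller than the spread between libraries. With TMM scaling the summed CPM of the pair was 174, 180 and 174 with DMSO. It was 165, 157 and 152 with NCD, lower without overlap, so whether the sum changed depended on the scaling.

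Upper glycolysis, from hexokinase to triosephosphate isomerase, was the group with the lowest median among the groups of more than 3 genes, -0.89 over 9 genes. Of the 9 genes 7 passed adjusted p under 0.05, all of them lower (77.8%, against 34.1% of all tested genes), and 3 were differentially expressed (33.3%, against 17.5%). HK2 (chromosome 2, 74833981 to 74893359, plus strand), the inducible hexokinase of tumours, was at 139.9, 159.0 and 136.5 CPM with DMSO and at 38.36, 41.86 and 39.72 CPM with NCD. The NCD libraries were close to each other and more than 3-fold below every DMSO library. The log2 fold change was -1.86 (SE 0.08, adjusted p = 9.52e-08, edgeR), a 3.63-fold fall. HK1 (chromosome 10, 69269984 to 69401884, plus strand), the housekeeping hexokinase, fell as well, from 365.2, 381.2 and 356.7 CPM to 171.2, 164.9 and 168.9 CPM. Its log2 fold change was -1.13 (SE 0.06, adjusted p = 2.42e-07, edgeR). HK2 fell by more than HK1: the log2 ratio of HK2 to HK1 went from between -1.39 and -1.26 with DMSO to between -2.16 and -1.98 with NCD. Per length, HK1 was the main hexokinase in both groups, at 80.2% ± 0.791 with DMSO and 87.1% ± 0.710 with NCD (SD, n = 3 each), and the sum of both fell to 0.467 of its DMSO level on the TPM scale.

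Phosphofructokinase-1, the committed step, is built from the platelet (PFKP), liver (PFKL) and muscle (PFKM) subunits. PFKP (chromosome 10, 3066333 to 3137712, plus strand) was at 352.4, 339.3 and 323.8 CPM with DMSO and at 122.5, 120.9 and 110.9 CPM with NCD. It was clearly lower in all 3 NCD libraries, with a log2 fold change of -1.52 (SE 0.06, adjusted p = 1.01e-07, edgeR). PFKL (chromosome 21, 44300051 to 44327376, plus strand) moved little, from 70.63, 72.59 and 67.75 CPM to 60.17, 61.98 and 56.93 CPM. The groups did not overlap, but the log2 fold change was only -0.24 (SE 0.07, adjusted p = 0.00973, edgeR). PFKM had a log2 fold change of -0.09 and did not pass (adjusted p = 0.181, edgeR). It shares 628 exon bases with SENP1 on the opposite strand. The subunit mix therefore changed: per length PFKP supplied 69.2% ± 0.608 of phosphofructokinase-1 transcripts with DMSO and 46.5% ± 0.825 with NCD, PFKM went from 17.7% ± 0.556 to 32.1% ± 0.781 and PFKL from 13.1% ± 0.372 to 21.4% ± 0.283 (SD, n = 3 each). The summed level fell to 0.576 of the DMSO level on the TPM scale.

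Of the other upper enzymes, GPI (glucose-6-phosphate isomerase) fell with a log2 fold change of -0.89 and ALDOC, the brain-type aldolase, with -0.93. TPI1 (triosephosphate isomerase) fell by 0.24 on the log2 scale. ALDOA, the muscle-type aldolase, had a log2 fold change of -0.18 and did not pass (adjusted p = 0.0519, edgeR). ALDOC was a minor transcript throughout, 1.37% ± 0.0824 of aldolase per length with DMSO and 0.814% ± 0.129 with NCD (SD, n = 3 each). The summed aldolase level was 0.975 of the DMSO level on the TPM scale. That scale does not use TMM, with which ALDOA was at 0.884 and ALDOC at 0.526 of the DMSO level. ALDOA also shares 1657 exon bases with AC093512.2 on the same strand, whose counts reached 18.7% of its own.

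The PFKFB genes, which encode the enzymes that make and break down fructose 2,6-bisphosphate, moved in opposite directions. PFKFB3 (chromosome 10, 6144934 to 6254644, plus strand), an isoform with high kinase activity in tumours, was at 93.05, 100.1 and 86.83 CPM with DMSO and at 44.66, 44.39 and 43.78 CPM with NCD. PFKFB4 (chromosome 3, 48517684 to 48562015, minus strand) went from 27.78, 31.18 and 27.19 CPM to 14.38, 12.99 and 13.85 CPM. Both fell to less than their lowest DMSO value in every NCD library, with log2 fold changes of -1.08 (SE 0.07, adjusted p = 1.39e-06) and -1.06 (SE 0.09, adjusted p = 7.61e-06, edgeR for both). PFKFB2 (chromosome 1, 207034366 to 207081024, plus strand), the heart-type isoform, rose from 17.54, 17.09 and 16.72 CPM to 64.40, 65.03 and 70.03 CPM. The separation was wide, with a log2 fold change of 1.96 (SE 0.07, adjusted p = 5.67e-08, edgeR). YOD1, a gene on the opposite strand that shares 315 exon bases with PFKFB2, rose too, by 1.24 on the log2 scale, and had 691 to 894 counts with DMSO and 1866 to 2799 with NCD. Whether the counting used strand is not stated, so reads of the 2 genes in the shared bases cannot be told apart. Per length PFKFB2 rose from 7.74% ± 0.466 to 40.6% ± 1.32 of the 3 isoforms, PFKFB3 dropped from 66.6% ± 0.477 to 42.8% ± 1.10 and PFKFB4 from 25.6% ± 0.538 to 16.6% ± 0.729 (SD, n = 3 each).

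In lower glycolysis, from GAPDH to pyruvate kinase, 5 of 6 genes passed adjusted p under 0.05 and all 5 were lower (83.3%, against 34.1% of all tested genes), with a median log2 fold change of -0.54 over the 6. PGK1 (chromosome X, 77910739 to 78129296, plus strand, as the gene record runs), phosphoglycerate kinase and the first ATP-yielding step, was at 1155, 1034 and 1072 CPM with DMSO and at 491.6, 466.7 and 434.1 CPM with NCD. ENO1 (chromosome 1, 8861000 to 8879250, minus strand), the common enolase, was at 2942, 2686 and 2726 CPM with DMSO and at 1282, 1296 and 1196 CPM with NCD. For both genes every NCD library was less than 0.5 of the lowest DMSO library. The log2 fold changes were -1.23 for PGK1 (SE 0.07, adjusted p = 7.79e-07) and -1.15 for ENO1 (SE 0.07, adjusted p = 1.06e-06, edgeR for both). These are 2 of the genes whose promoter windows are printed above, picked by their number of hypoxia cores, 4 and 2. PKM (pyruvate kinase) fell by 0.61 and PGAM1 (phosphoglycerate mutase) by 0.46 on the log2 scale. ENO2, the neuronal enolase, fell by only 0.22, so its share of enolase per length rose from 4.10% ± 0.318 to 7.51% ± 0.441 (SD, n = 3 each) while the enolase sum fell to 0.520 of the DMSO level on the TPM scale.

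GAPDH, like ALDOA and TPI1 just before it in the pathway, moved little. It was at 6247, 5220 and 5749 CPM with DMSO and at 5477, 5559 and 4674 CPM with NCD, and these ranges overlapped. Its log2 fold change of -0.13 (SE 0.10) did not pass (adjusted p = 0.271, edgeR). The annotation names 65 GAPDH pseudogenes, but over the 21 members with named pseudogenes these copies never took more than 0.365% of the member's counts.

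**Figure D2:**
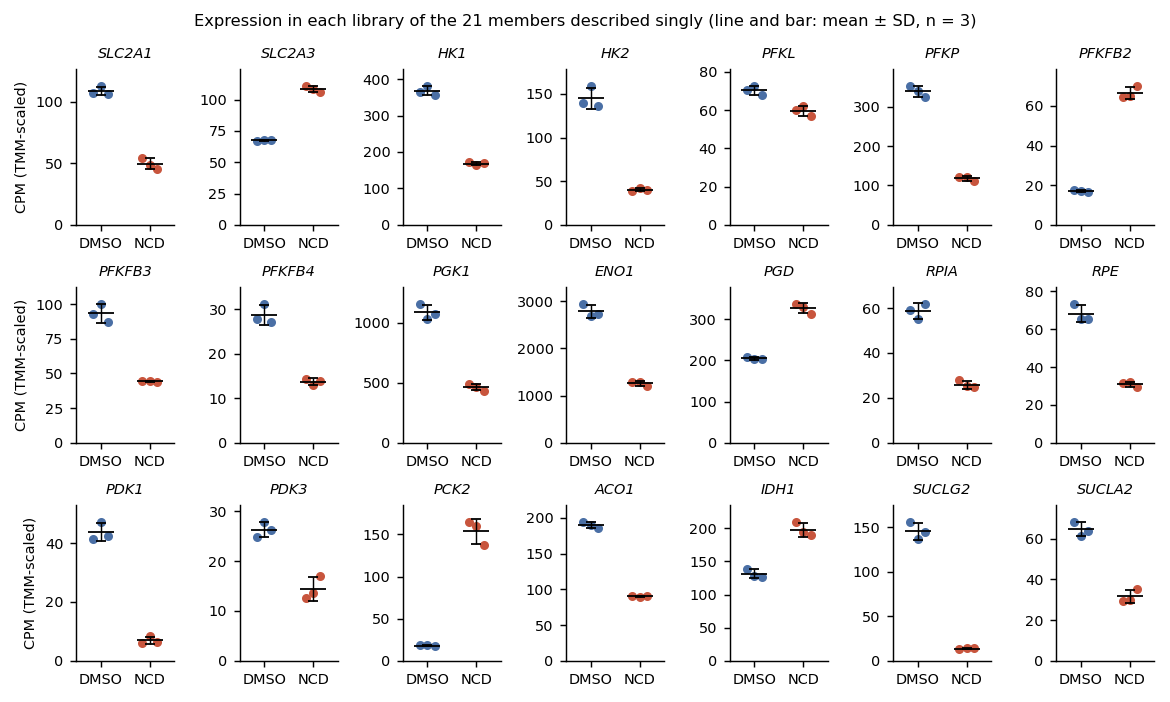
TMM-scaled CPM (vertical axes, each from 0) in each DMSO and NCD library for the 21 genes described one by one, with the horizontal line and bar giving mean ± SD (n = 3). The groups do not overlap in any panel; PCK2 is at 137.2 CPM or more in every NCD library and at 19.04 CPM or less with DMSO, and SUCLG2 is at 14.17 CPM or less with NCD and at 137 CPM or more with DMSO.

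The pentose phosphate genes divided by branch. In the oxidative branch, which makes NADPH, PGD (6-phosphogluconate dehydrogenase, chromosome 1, 10398592 to 10420144, plus strand) was at 209.4, 203.8 and 202.8 CPM with DMSO and at 337.4, 328.9 and 314.2 CPM with NCD. It was higher in all 3 NCD libraries, with a log2 fold change of 0.67 (SE 0.06, adjusted p = 5.6e-06, edgeR). PGLS, the lactonase just before it, rose with a log2 fold change of 0.61. All 4 genes of the non-oxidative branch, which interconverts sugars, were lower. RPIA (ribose-5-phosphate isomerase, chromosome 2, 88691644 to 88750935, plus strand) went from 59.00, 55.00 and 61.83 CPM to 28.01, 25.09 and 24.76 CPM, and RPE (ribulose-5-phosphate epimerase, chromosome 2, 210002565 to 210022259, plus strand) from 73.40, 65.63 and 65.45 CPM to 31.46, 32.13 and 29.51 CPM. Both were near 0.45 of their DMSO level, with log2 fold changes of -1.17 (SE 0.08, adjusted p = 2.03e-06) and -1.14 (SE 0.08, adjusted p = 1.69e-06, edgeR for both). TKT (transketolase) fell by 0.68 and TALDO1 (transaldolase) by 0.29 on the log2 scale. Per length TALDO1 at 458.6 ± 12.8 TPM, TKT at 242.7 ± 11.6 TPM and PGD at 204.6 ± 9.57 TPM were the most abundant of the 6 with DMSO, and with NCD PGD was at 361.1 ± 7.13 TPM and TKT at 167.7 ± 5.81 TPM (SD, n = 3 each). With merged exon lengths PGD was above TKT in both groups, at 207.5 against 122.6 TPM with DMSO. The branches were compared by these counts only, and the difference between them was not tested.

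Pyruvate entry and its branch points held the largest rise among the 51 genes and the second largest fall. PCK2 (chromosome 14, 24094053 to 24110598, plus strand), the mitochondrial phosphoenolpyruvate carboxykinase, was at 19.04, 18.16 and 17.16 CPM with DMSO and at 164.9, 159.9 and 137.2 CPM with NCD. Every NCD library was more than 7-fold above every DMSO library. The log2 fold change was 3.09 (SE 0.09, adjusted p = 2.27e-08, edgeR), and it lay between 3.01 and 3.15 in the fits that left out a single library. PDK1 (chromosome 2, 172555373 to 172608669, plus strand), a kinase that inactivates pyruvate dehydrogenase, went from 41.52, 47.25 and 42.37 CPM to 6.03, 8.278 and 6.527 CPM. The groups were far apart, with a log2 fold change of -2.66 (SE 0.12, adjusted p = 1.89e-07, edgeR), a 6.31-fold fall. AC078883.1, on the opposite strand and sharing 445 exon bases with PDK1, had at most 18.3% of its counts and fell by 2.56 on the log2 scale, so reads of the 2 cannot be told apart there. PDK3 (chromosome X, 24465221 to 24541862, plus strand), a second such kinase, fell less, from 24.95, 27.89 and 26.20 CPM to 12.54, 13.66 and 17.06 CPM. The groups did not overlap, the third NCD library was the highest of its group, and the log2 fold change was -0.87 (SE 0.12, adjusted p = 0.000186, edgeR) with all libraries and -1.03 without that one. The log2 ratio of PDK3 to PDK1 counts rose by 1.79.

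The pyruvate dehydrogenase complex itself moved little. PDHB, the E1 beta subunit, rose by 0.25 on the log2 scale (adjusted p = 0.0276, edgeR), while PDHA1, its partner in E1, was at 0.06 and DLAT, the E2 subunit, at -0.09, and neither passed. Both subunits of the mitochondrial pyruvate carrier rose, MPC1 with a log2 fold change of 0.53 and MPC2 with 0.66. MPC2 shares 575 exon bases with DCAF6 on the opposite strand, which fell by 1.93 on the log2 scale. PC (pyruvate carboxylase), which makes oxaloacetate from pyruvate, fell by 0.72 on the log2 scale and shares 621 exon bases with LRFN4.

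Among the 16 genes of the TCA cycle and citrate use, 10 were lower (62.5%, against 34.1% of all tested genes), 3 were higher (18.8%, against 35.3%) and 3 did not pass, with a median log2 fold change of -0.45. SUCLG2 (chromosome 3, 67360460 to 67654614, minus strand), the beta subunit of the GTP-forming succinyl-CoA ligase, had the largest fall of all 51 genes. It was at 156.1, 137.0 and 144.3 CPM with DMSO and at 13.11, 13.81 and 14.17 CPM with NCD, so the NCD libraries nearly coincided. The log2 fold change was -3.41 (SE 0.08, adjusted p = 1.16e-08, edgeR), a 10.6-fold fall. SUCLA2 (chromosome 13, 47745736 to 48037968, minus strand, as the gene record runs), the beta subunit of the ATP-forming enzyme, went from 68.22, 61.39 and 63.97 CPM to 29.45, 30.06 and 35.29 CPM. It was lower in every NCD library, with a log2 fold change of -1.03 (SE 0.09, adjusted p = 8.04e-06, edgeR), and was at -0.99 without the second NCD library. Per length SUCLG2 was 68.1%, 67.5% and 67.8% of the beta subunits with DMSO and 29.3%, 30.0% and 27.2% with NCD. Which beta subunit was the main one with NCD depended on the length used: with all annotated exons merged in place of the principal transcript, SUCLG2 was at 141.1 TPM with DMSO and 15.07 TPM with NCD, and SUCLA2 at 21.63 and 12.06 TPM. The summed beta subunit level fell to 0.247 of its DMSO level on the TPM scale, the lowest of the 8 steps with more than 1 isozyme for which sums were made, while the shared alpha subunit SUCLG1 fell by 0.46 on the log2 scale.

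**Figure D3:**
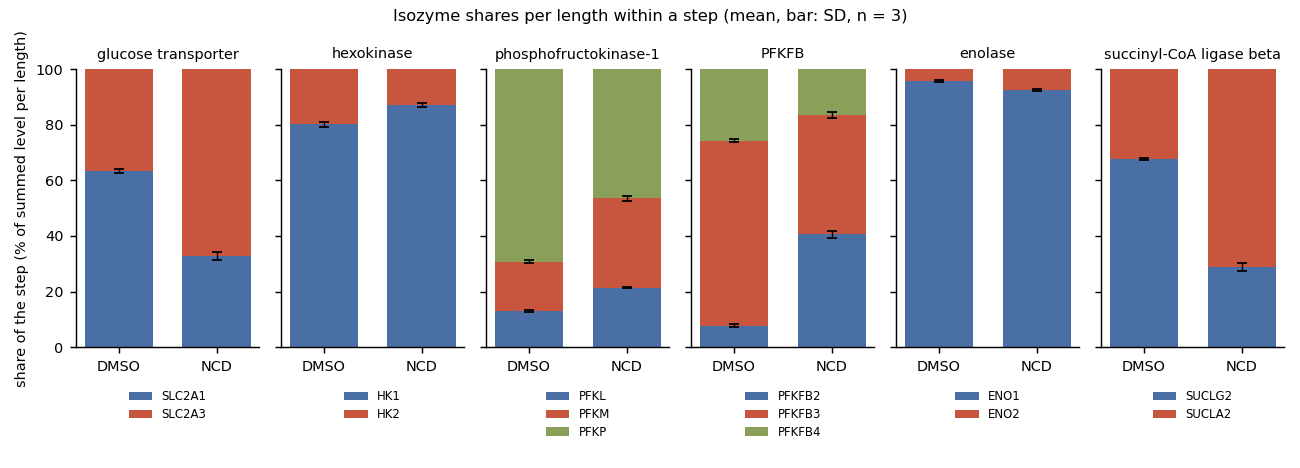
Share of each isozyme in the summed per-length level of its step (vertical axis, percent of TPM), with stacked bars for the DMSO and NCD means and black bars for the SD at each boundary (n = 3). The main gene changes from SLC2A1 to SLC2A3 among transporters, the SUCLG2 share drops from 67.8% to 28.8% with these principal transcript lengths (with merged exon lengths SUCLG2 stays above SUCLA2), and HK1 and ENO1 stay the main gene of their steps.

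The cytosolic and mitochondrial partners of the cycle also differed. ACO1 (chromosome 9, 32384603 to 32454769, plus strand), the cytosolic aconitase that doubles as an iron regulatory protein, went from 194.2, 189.3 and 185.2 CPM to 90.58, 89.61 and 90.54 CPM. The values within each group were tight and the groups far apart, with a log2 fold change of -1.07 (SE 0.05, adjusted p = 2.54e-07, edgeR). IDH1 (chromosome 2, 208236227 to 208266074, minus strand), the cytosolic NADP-linked isocitrate dehydrogenase, rose from 139.4, 127.8 and 127.2 CPM to 209.8, 194.8 and 189.7 CPM. It was the largest rise of the group, with a log2 fold change of 0.59 (SE 0.07, adjusted p = 3.86e-05, edgeR). Its mitochondrial counterpart IDH2 had a log2 fold change of -0.01 and did not pass (adjusted p = 0.926, edgeR). The NAD-linked subunits of the cycle moved apart, IDH3A rising by 0.29 and IDH3B falling by 0.44 on the log2 scale. Log2 falls of CS (citrate synthase) by 0.74, OGDH (the E1 subunit of oxoglutarate dehydrogenase) by 0.78, FH (fumarase) by 0.72 and DLD (the shared E3 subunit) by 0.64 also passed. The E2 subunit DLST did not pass, at -0.10. MDH2, the mitochondrial malate dehydrogenase, rose by 0.19 with CPM ranges that overlapped, the cytosolic MDH1 at 0.14 did not pass (adjusted p = 0.226, edgeR), and ACLY, which turns exported citrate into acetyl-CoA, fell by 0.16 on the log2 scale.

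For 15 pairs of isozymes or subunits the log2 ratio of their counts was compared between the groups. In 13 pairs the groups did not overlap, which gave p = 0.1 in an exact two-sided permutation test, the smallest value that 3 against 3 libraries allow, and 0.115 after Benjamini-Hochberg adjustment over the 15 pairs, so no pair could reach 0.05. Changes above 1 on the log2 scale were seen in 5 pairs, namely PFKFB2 to PFKFB3 with 3.03, SUCLG2 to SUCLA2 with -2.38, SLC2A3 to SLC2A1 with 1.83, PDK3 to PDK1 with 1.79 and PFKP to PFKL with -1.28. These ratios are unaffected by how libraries are scaled. The pairs that overlapped were PFKFB4 to PFKFB3, which differed by 0.01 (p = 0.8, exact permutation test), and MDH2 to MDH1, which differed by 0.05 (p = 0.5, exact permutation test).

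The changes followed the genomic length of the genes, a feature that the choice of members did not use. Among the 12 members whose principal transcript spans more than 50 kb all log2 fold changes were negative, the median was -1.10 and 8 were differentially expressed and lower (66.7%), namely HK1, HK2, PFKP, RPIA, PDK1, ACO1, SUCLG2 and SUCLA2. In the 18 members of 20 to 50 kb the median was -0.62 and 4 were lower by that rule, and in the 21 members up to 20 kb the median was -0.01 and 2 were lower. All tested genes showed the same order, with medians of -0.95, 0.14 and 0.36 and lower shares of 47.5%, 5.71% and 5.04%. Over the 51 members the rank correlation of span with log2 fold change was -0.573, and over the 14692 tested genes with a span it was -0.499, as a description across genes measured in the same libraries. The medians of members and all genes lay further apart below 50 kb than above it, while the lower shares lay furthest apart above 50 kb. ENO1 and RPE, under 20 kb, and SLC2A1, PFKFB3, PFKFB4 and PGK1, from 25.1 to 39.2 kb, were lower in classes where few genes were. SUCLG2 had the longest span, 279.9 kb.

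**Figure D4:**
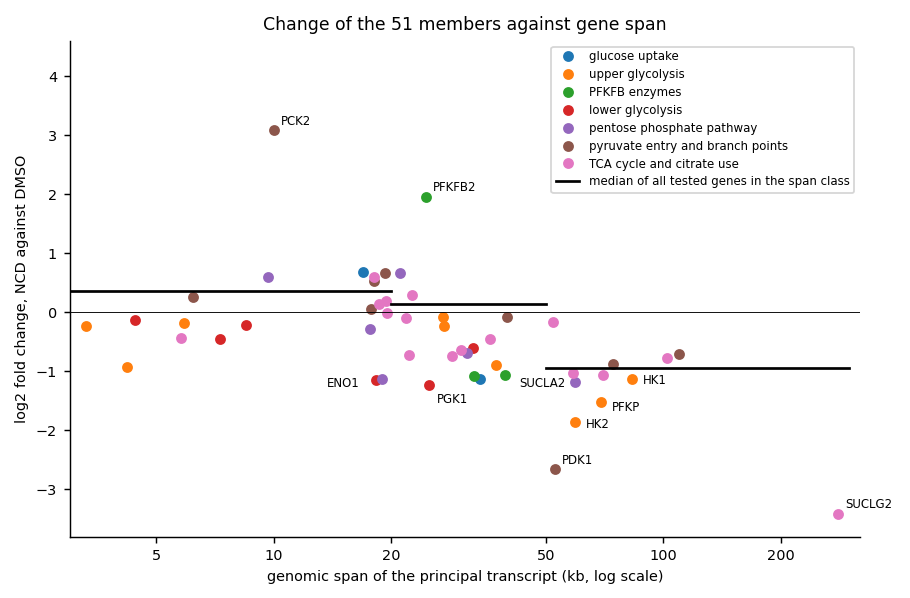
Log2 fold change (vertical axis, NCD against DMSO, TMM scaling) of the 51 members against the genomic span of the principal transcript (horizontal axis, kb, log scale), coloured by pathway step, with black lines for the median of all tested genes up to 20 kb, from 20 to 50 kb and above 50 kb. All 12 members above 50 kb are below 0, and the members below 50 kb mostly lie under the black lines.

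Enzymes and carriers of the same pathways that are outside the 51 were counted in lists of their own. Of 29 further glycolysis and pentose phosphate genes 22 could be tested, and at adjusted p under 0.05 8 were higher (36.4%, close to the 35.3% of all tested genes) and 10 lower (45.5%, against 34.1%), with a median log2 fold change of 0.17. The largest rise in that list was SLC16A1, a lactate and pyruvate carrier, from 0.4933 to 1.085 CPM with DMSO to 22.68 to 24.73 CPM with NCD (log2 fold change 4.89). The largest fall was SLC2A13, the proton-myo-inositol symporter, with a log2 fold change of -2.99. LDHA, the lactate dehydrogenase that follows pyruvate kinase in glycolytic cells, fell by 1.39 on the log2 scale, near the values of PGK1 and ENO1. Its isozyme LDHB fell less, by 0.44 on the log2 scale. Both were named after their values were seen. Of 30 further pyruvate and TCA genes 28 could be tested, and 7 were higher (25%, against 35.3% of all tested genes) and 11 lower (39.3%, against 34.1%), with a median of -0.12. PDK4 rose most in that list, with a log2 fold change of 1.66, from 2.796 to 4.074 CPM with DMSO to 9.468 to 11.14 CPM with NCD, opposite in direction to PDK1 and PDK3. PDK2, named after its values were seen, also rose, with a log2 fold change of 1.21, from 14.42 ± 0.256 to 33.43 ± 1.07 CPM (SD over 3 libraries). ME3, a mitochondrial malic enzyme, fell most, with -2.84, and the other malic enzymes, named after their values were seen, were at -2.74 for ME1 and -1.44 for ME2, both of which passed.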

How the data were processed

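RNA-seq libraries of MDA-MB-231 cells with DMSO or NCD, 3 per group, were used. Expected counts per Ensembl gene were deposited, which the authors made with RSEM and did not normalize. HISAT2 and GRCh38 (hg38) are named in the submitters' processing notes without versions. The annotation release and the strand setting are not given in the sources used here. For NCD replicates 2 and 3 the description names a cell line with another number, but the cell line field, which was followed, reads MDA-MB-231. In each library 25 lines held no gene and no count and were skipped. Symbols were found for 62666 of 63241 identifiers. Coordinates, spans and transcript lengths came from GENCODE release 29 (58228 identifiers, at least 99.44% of counts per library), and promoter windows from RefSeq (GRCh38.p14).

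Whole-number rounded counts were tested in edgeR 4.0.16 under R 4.3.3 (filterByExpr, TMM, glmQLFit, glmQLFTest, Benjamini-Hochberg adjustment over 15295 genes). Standard errors are the absolute log2 fold change over the square root of F. CPM uses TMM-scaled library sizes, with factors of 0.911 to 0.949 for DMSO and 1.06 to 1.09 for NCD. TPM here is counts per principal transcript length, scaled to a sum of 1000000 and not by TMM. It was used to compare genes and to sum the isozymes of a step. Changes of those sums between groups can therefore differ from changes with TMM scaling. The code was tested on simulated data. Totals of 18223594 counts or more gave each member at least 132 counts in each library. Exact permutation tests used scipy 1.17.1.

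The members, lists and tests were chosen with earlier results of these data known. Described singly are the member with the largest rise and fall in each pathway group, members past both thresholds, pairs whose ratio changed by more than 1 on the log2 scale, and the largest rise and fall in each further list. Alternatives were DESeq2 1.42.0, limma-voom (limma 3.58.1), other scalings and filters, a block for the replicate number, and leaving out single libraries. The other experiments of the study were not analysed here. Some genes that the naming rule covers are left out of the text.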

Additional observations from a re-analysis of the deposited data

How the results depend on the processing

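With library totals 5 of 51 members rather than 14 were differentially expressed and lower, a smaller share than the background of 14.3%. The median log2 fold change of the members was -0.26. Under that scaling 9 members kept an adjusted p of at most 5.71e-05 but fell short of the fold threshold (log2 fold changes from -0.98 for RPIA to -0.83 for SUCLA2), and over all tested genes 2793 were higher and 2181 lower. Leaving out each library in turn left 13 to 15 members lower and 2 higher, and 4653 to 5049 genes differentially expressed. The log2 ratio of PFKFB4 to PFKFB3, which did not differ between groups, turned to -0.008 without DMSO replicate 1 and -0.015 without NCD replicate 1, in a range of -0.015 to 0.053. Of 21 members described singly 11 kept their direction and their side of both thresholds under all 15 alternatives. The replicate numbers did not pair the samples, since the correlations of same-numbered deviations were 0.216, -0.185 and 0.023, and with the replicate block 2 members were higher and 14 lower, as without it. Requiring 10 counts in all 6 libraries left 3683 differentially expressed genes, and no filter on low counts gave 5545. Spread and counting error set the precision, 3 libraries per group allow no exact p below 0.1, and for 21 members reads in exon bases shared with another gene cannot be told apart.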

Other observations

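Lists next to the enzymes were also counted. Of 18 regulators of glucose metabolism 8 were higher (44.4%, against 35.3% of all tested genes) and 5 lower (27.8%, against 34.1%) at adjusted p under 0.05 by edgeR's quasi-likelihood test, with a median log2 fold change of 0.15. HIF1A, the oxygen-regulated subunit of HIF-1, fell most, from between 297.2 and 355.2 CPM with DMSO to 93.42, 90.18 and 137.8 CPM with NCD (log2 fold change -1.57, standard error 0.16, adjusted p = 2.13e-05, edgeR). The third NCD library was the highest of its group and still far below the DMSO libraries.

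Of 20 known HIF-1 targets outside glucose metabolism 14 were lower (70.0%, against 34.1% of all tested genes), with a median log2 fold change of -0.76. The other direction held 4 genes, a smaller share than the 35.3% of all tested genes. These were STC2, VEGFA, DDIT4 and LOX. VEGFA, DDIT4 and LOX, named after their values were seen, had log2 fold changes of 0.94, 0.79 and 0.70. VEGFA went from 61.88 ± 4.73 to 118.8 ± 1.01 CPM (SD, n = 3 each). By the rule with a fold threshold 6 were lower (30.0%, against 17.5% of all tested genes) and 1 was higher (5.0%, against 13.5%). CA9, the tumour carbonic anhydrase, had the largest fall, from 1.809 to 3.134 CPM to 0.3264 to 0.4369 CPM, a log2 fold change of -2.77 at a level of few counts. STC2, a secreted glycoprotein, had the only rise past both thresholds, from 0.1096 to 0.679 CPM to 4.76 to 6.073 CPM. These lists were compared with the background by counts only, and their relation to the enzymes was not tested.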
